A study of Mus musculus with 8 samples.

Results

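The 44 collagen genes of the mouse were followed through 8 single-cell RNA-seq libraries of colon assembloids, colon organoids and colon tissue. A gene was a member when its symbol had the form Col, a number, the letter a and a number, and 44 of the 32285 features in the files met this rule, which used no measured value. The members were grouped by what their proteins are known to build. There were 11 fibrillar genes, 6 genes of the basement membrane network, 2 multiplexins, 6 beaded filament genes, 3 short chain genes, 10 genes of fibril-associated and related collagens, 1 anchoring fibril gene, 4 transmembrane genes and Col28a1.

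All libraries came from C57BL/6 mice of 6–12 weeks, and 2 libraries were made per group with a droplet 3′ kit. In an assembloid, cultured stromal cells are mixed into Matrigel and an epithelial organoid is added. The assembloids were grown for 4–5 days on an orbital shaker in organoid medium from which noggin, R-spondin 1, the surrogate Wnt and CHIR-99021 were left out. The 4 groups were the EpCAM-negative stromal cells of assembloids, the epithelial cells of assembloids, the epithelial cells of organoids grown alone in Matrigel, whose maintenance medium holds these 4 factors, and epithelial cells of crypts taken from colon tissue. EGF and A83-01 are in the medium of both cultures, and tissue cells were not cultured. The libraries of a group were biological replicates per the study's methods, and the stromal assembloid cells derived from 2 mice. For the epithelial groups it was not stated whether the replicates were mice or cultures. The p-values of comparisons between groups measure the spread between the libraries of a group. In the stromal classes the library is a block, so p-values measure how differences between classes vary over the 2 stromal libraries. All classes there share a single estimate of the spread, so a small p-value does not stand for many replicates. With 2 libraries against 2, an exact two-sided permutation test of a single value cannot go below p = 0.333, so tests were made in models fitted across all genes. Assembloids were dissociated with Liberase and TrypLE, and crypts and organoids with TrypLE alone before loading. The counting program differed in version between stromal and epithelial libraries. None of these differences can be told apart from that between the groups it follows: the medium or dissociation and the source cannot be told apart, nor can the version and the compartment.

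Collagens are built from alpha chains that wind into a triple helix in the endoplasmic reticulum, where prolines and lysines are hydroxylated and the chaperone HSP47 binds. Fibrillar chains lose their propeptides outside the cell, line up into fibrils and are cross-linked by lysyl oxidases. Type IV chains instead form the sheet-like network of basement membranes. In the gut wall, fibroblasts are the known main makers of interstitial collagen, while epithelium, endothelium, glia and muscle all rest on or are wrapped in a basement membrane.

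Barcodes with under 500 genes or over 10% mitochondrial UMIs were removed, which left 9020 and 9048 stromal cells, 29410 and 7722 assembloid epithelial cells, 4872 and 8034 organoid cells and 4692 and 4310 tissue cells (replicates 1 and 2). These cells held between 36970661 and 187583982 UMIs per library. The filters passed 94.8% and 96.1% of stromal barcodes but only 38.7% and 25.4% of tissue barcodes. Any pair of libraries shared 13 to 141 cell barcodes, at most 0.981% of the smaller library. Cell classes were cut with lists of 8 marker genes each, none of them a collagen. Leading genes of most classes include the gate markers themselves, so they give no independent check of the names. The stroma held 7623 and 8613 fibroblast-like cells, 75 and 66 glia-like cells, 20 and 61 endothelium-like cells, 39 and 72 neuron-like cells and 556 and 22 squamous-like cells with keratins 5 and 14. Levels are given below as UMIs divided by all UMIs of a class in a library and scaled to the usual CPM unit, always replicate 1 first. A 3′ count is not a measure per length, so levels are compared between cells and not between genes. In sums over cells, fewer expressing cells and less RNA per cell cannot be told apart. Whether values of groups overlap is described for single genes, and the share of all genes without overlap was not counted.

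The collagen share of RNA was highest in fibroblasts and glia. Members made up 0.928% and 1.21% of all UMIs in fibroblast-like cells, 0.833% and 0.684% in glia-like cells and 0.215% and 0.163% in endothelium-like cells. In epithelium-like cells the share was 0.0342% and 0.0152% for assembloids. Organoids had 0.00589% and 0.0101%, and tissue had 0.00685% and 0.00700%. All 44 members had at least 1 UMI in each assembloid epithelial library, 43 and 42 in stroma and 36 and 37 in organoids. In tissue, whose libraries held the fewest UMIs, 30 and 28 were seen. These counts depend on depth, and the share of all features seen was not set beside them. In each stromal library 12 members reached 100 CPM, against 1 in each assembloid epithelial library and none in organoids or tissue.

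**Figure D1:**
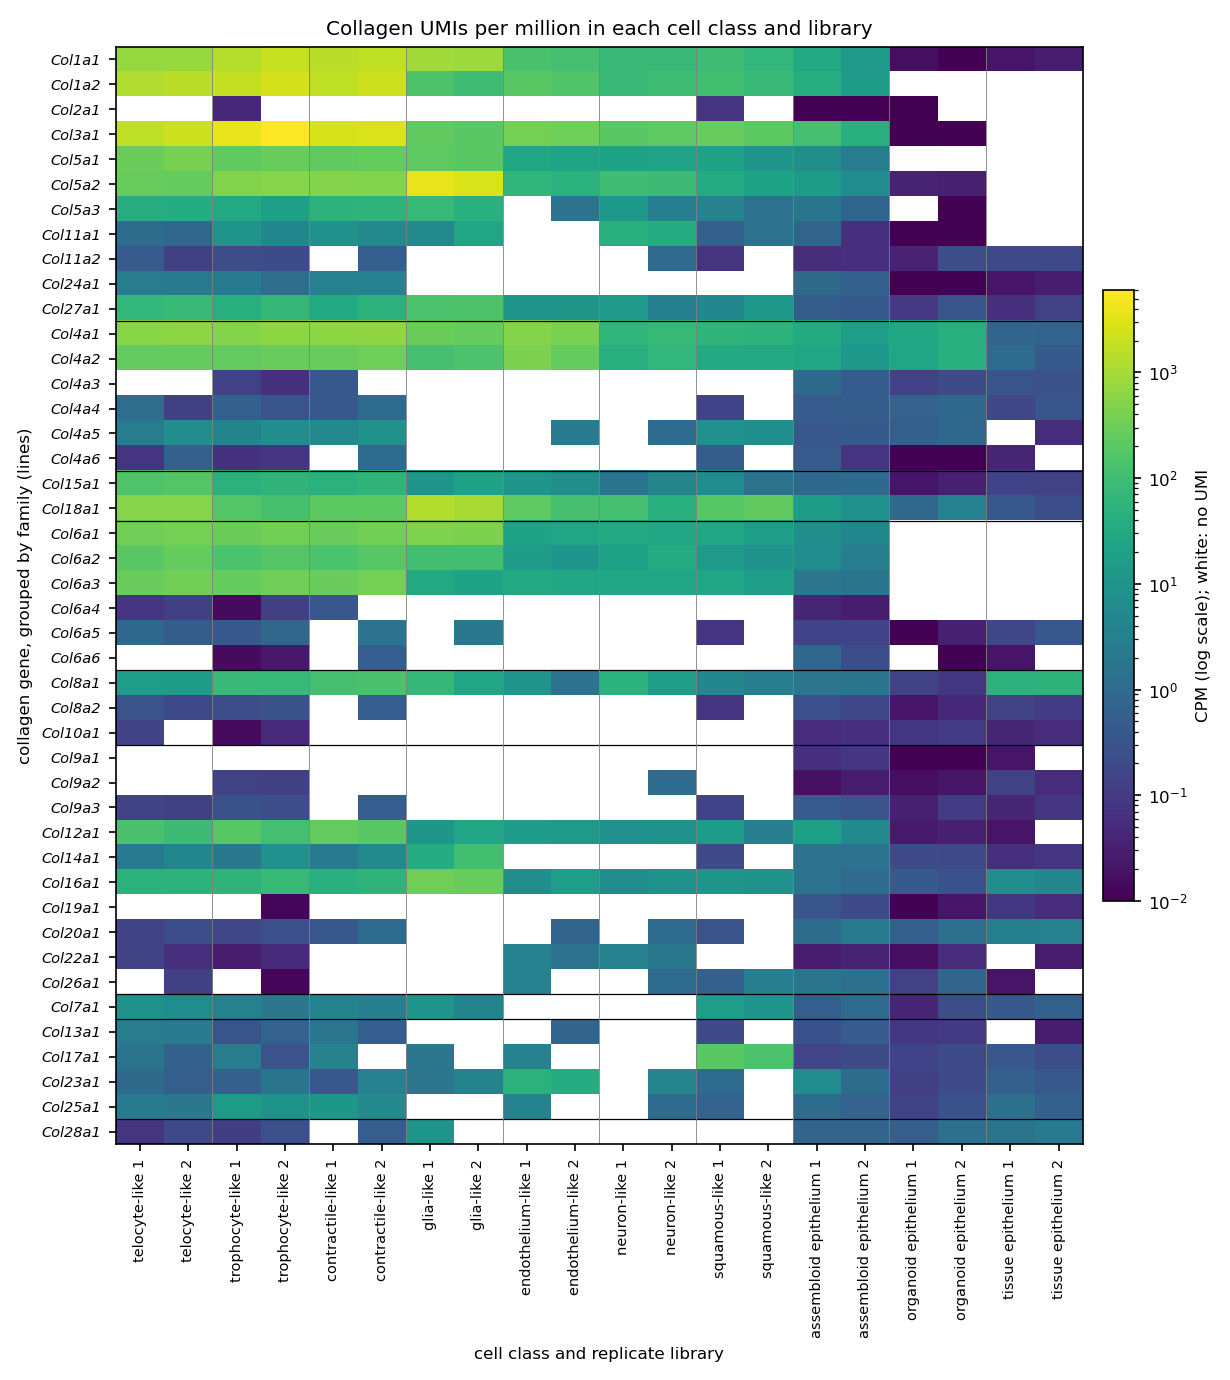
Heat map of the level of the 44 collagen genes (rows, ordered by family) in 7 stromal classes and in the epithelium-like cells of assembloids, organoids and tissue, with both libraries of each side by side. Colour gives CPM on a log scale and white marks no UMI. Fibroblast types are bright (high) at Col1a1, Col1a2, Col3a1, Col5a1, Col5a2 and Col6a1 to Col6a3. In the same families Col2a1, Col11a2 and Col6a4 to Col6a6 are low or absent in them. Glia stand out at Col5a2 (3728 and 2776 CPM), squamous-like cells at Col17a1 (199 and 136 CPM) and tissue epithelium at Col8a1 (50.5 and 53.7 CPM).

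Fibroblast-like cells supplied over 50% of the UMIs of 37 of the 43 members seen in stromal replicate 1 and of 40 of 42 in replicate 2, as they did for 84.8% and 89.5% of all features with a UMI. These cells held 81.2% and 95.1% of all UMIs of the libraries, and 29 and 31 members lay above that share, against 55.3% and 48.0% of all features. Col17a1 was the exception with most UMIs, with 64.4% and 39.8% of them in squamous-like cells. The other exceptions had at most 34 UMIs, such as Col4a6 and Col26a1 in replicate 1. The leading member differed between classes. Col3a1 took 34.8% and 39.5% of collagen UMIs in fibroblast-like cells. Col5a2 took 44.7% and 40.6% in glia-like cells, and Col4a1 took 23.6% and 25.0% in endothelium-like cells. In tissue epithelium 73.7% and 76.8% of the few collagen UMIs were Col8a1. In organoids the lead was shared by the type IV pair, Col4a1 with 47.4% in replicate 1 and Col4a2 with 45.4% in replicate 2.

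Fibroblast-like cells carried the chains of types I and III, the main fibrils of interstitial matrix. Col1a1 stood at 1328 and 1649 CPM, Col1a2 at 1686 and 2322 CPM and Col3a1 at 3228 and 4772 CPM. The type V chains, which sit inside type I fibrils and set their width, were found with Col5a1 at 245 and 303 CPM, Col5a2 at 453 and 473 CPM and Col5a3 at 40.4 and 26.8 CPM. Replicate 2 was the higher library for all of these except Col5a3.

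Of the other fibrillar genes in fibroblast-like cells, Col27a1 reached 45.3 and 73.9 CPM, Col11a1 8.32 and 4.25 CPM and Col24a1 2.40 and 1.504 CPM. Type VI chains, which form beaded filaments around cells, were present with Col6a1 at 325 and 381 CPM, Col6a2 at 162 and 203 CPM and Col6a3 at 282 and 347 CPM. Basement membrane genes were found in these cells too, with Col4a1 at 544 and 631 CPM, Col4a2 at 251 and 280 CPM, Col15a1 at 76.0 and 89.0 CPM and Col18a1 at 252 and 242 CPM. Among fibril-associated collagens Col12a1 had 196 and 119 CPM, Col16a1 had 56.2 and 73.1 CPM and Col14a1 had 2.25 and 7.11 CPM. The anchoring fibril gene Col7a1 was low at 4.51 and 2.92 CPM, as was Col17a1 at 2.49 and 0.421 CPM. Col20a1 (0.266 and 0.263 CPM) and Col28a1 (0.183 and 0.263 CPM) were close to absent, and no UMI of Col9a1 was found in fibroblast-like cells of either library.

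Telocyte-like and trophocyte-like fibroblasts, the Foxl1-bearing cells under the upper crypt and the Cd34-bearing cells below it in the gut, differed in which collagens they carried. The gate took 683 and 798 telocyte-like and 4162 and 5576 trophocyte-like cells. The other fibroblast-like cells were mostly undecided between the lists (2688 and 2161 cells), and 331 and 322 telocyte-like and 1619 and 1656 trophocyte-like cells only just met the gate. In the stromal classes 24 of the 44 members passed the filter on low counts and 20 did not. Of the 24 members tested, 5 were higher and 8 lower in telocyte-like cells in edgeR's quasi-likelihood test with Benjamini-Hochberg adjustment. Over all 12753 genes tested, 10.4% were called higher and 12.5% lower, 22.9% in all. The members' median log2 difference was −0.31, against −0.03 over all genes. Without TMM scaling of the libraries 57.1% of all calls were higher, against 45.5% with it, and the members' calls were 5 higher and 7 lower.

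The members higher in telocyte-like cells included both multiplexins and the anchoring fibril gene. Col18a1, a heparan sulphate bearing collagen of basement membranes whose end fragment is endostatin, had 540 and 529 CPM in telocyte-like and 171 and 122 CPM in trophocyte-like cells. The groups did not overlap, and the log2 difference was 1.81 ± 0.23 (SE, edgeR adjusted p = 2.05e-05). The other multiplexin, Col15a1, had 154 and 167 CPM against 48.8 and 61.7 CPM, with a log2 difference of 1.48 ± 0.18 (edgeR adjusted p = 1.46e-05). Col7a1, the chain of the anchoring fibrils that tie epithelial basement membrane to the matrix below, had 9.29 and 6.60 CPM against 3.47 and 1.93 CPM (log2 difference 1.52 ± 0.20, edgeR adjusted p = 4.87e-05). Col5a3 and Col6a2 were also higher, by 0.59 ± 0.14 (edgeR adjusted p = 0.00474) and 0.49 ± 0.14 (edgeR adjusted p = 0.0219) on the log2 scale. Col5a3 had 40.4 and 38.6 CPM against 32.0 and 19.5 CPM, and Col6a2 had 196 and 253 CPM against 137 and 166 CPM. None of the 5 genes overlapped between the fibroblast types. The calls of Col5a3 and Col6a2 were lost with DESeq2 and without the library block, and that of Col6a2 also with a looser gate.

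Of the 8 fibrillar genes tested, 5 were lower in telocyte-like cells, 1 was higher (Col5a3) and 2 were not called. Col3a1 had 1711 and 2195 CPM against 3721 and 5800 CPM in trophocyte-like cells, and Col1a1 had 725 and 786 CPM against 1384 and 1886 CPM. Both telocyte-like values were below both trophocyte-like values for each gene, with log2 differences of −1.36 ± 0.19 (edgeR adjusted p = 4.65e-05) and −1.19 ± 0.17 (edgeR adjusted p = 6.58e-05). Col5a2 followed at 279 and 261 CPM against 477 and 528 CPM (−0.98 ± 0.15, edgeR adjusted p = 0.000132), and Col1a2 at 1215 and 1532 CPM against 1732 and 2534 CPM (−0.71 ± 0.20, edgeR adjusted p = 0.0162), a call that was lost with a looser gate and without the library block.

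The steepest falls were in members of low level. Col8a1, a short chain collagen known from vessel walls and Descemet's membrane, had 16.6 and 15.2 CPM in telocyte-like and 78.2 and 75.4 CPM in trophocyte-like cells (−2.35 ± 0.22, edgeR adjusted p = 5.33e-07). Col25a1, a transmembrane collagen, had 2.23 and 1.91 CPM against 14.1 and 8.78 CPM (−2.50 ± 0.25, edgeR adjusted p = 3.57e-06). Col11a1, best known from cartilage fibrils, had 1.08 and 0.802 CPM against 9.55 and 4.98 CPM (−2.97 ± 0.39, edgeR adjusted p = 3.41e-05). In none of these 3 genes did the fibroblast types overlap. The filter on low counts stood at 5.07 CPM in at least 2 libraries, and Col25a1 and Col11a1 were under it in telocyte-like cells and were tested through classes where they are higher. Of the 18 members that reached it in telocyte-like cells, 5 were higher and 6 lower, and Col7a1 was under it in trophocyte-like cells.

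The type IV pair did not separate the fibroblast types. Col4a1 had 565 and 582 CPM in telocyte-like and 510 and 624 CPM in trophocyte-like cells, so that the values overlapped (log2 difference −0.06 ± 0.14, edgeR adjusted p = 0.81). Col4a2 had 246 and 262 CPM against 241 and 278 CPM (−0.11 ± 0.16, edgeR adjusted p = 0.699). Col6a1 (332 and 380 against 302 and 359 CPM) and Col6a3 (285 and 361 against 265 and 329 CPM) overlapped as well. Col5a1 was at 299 and 382 against 231 and 274 CPM, Col12a1 at 129 and 91.5 against 192 and 110 CPM and Col14a1 at 2.38 and 4.51 against 2.22 and 7.87 CPM, and none of the 3 passed the test.

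**Figure D2:**
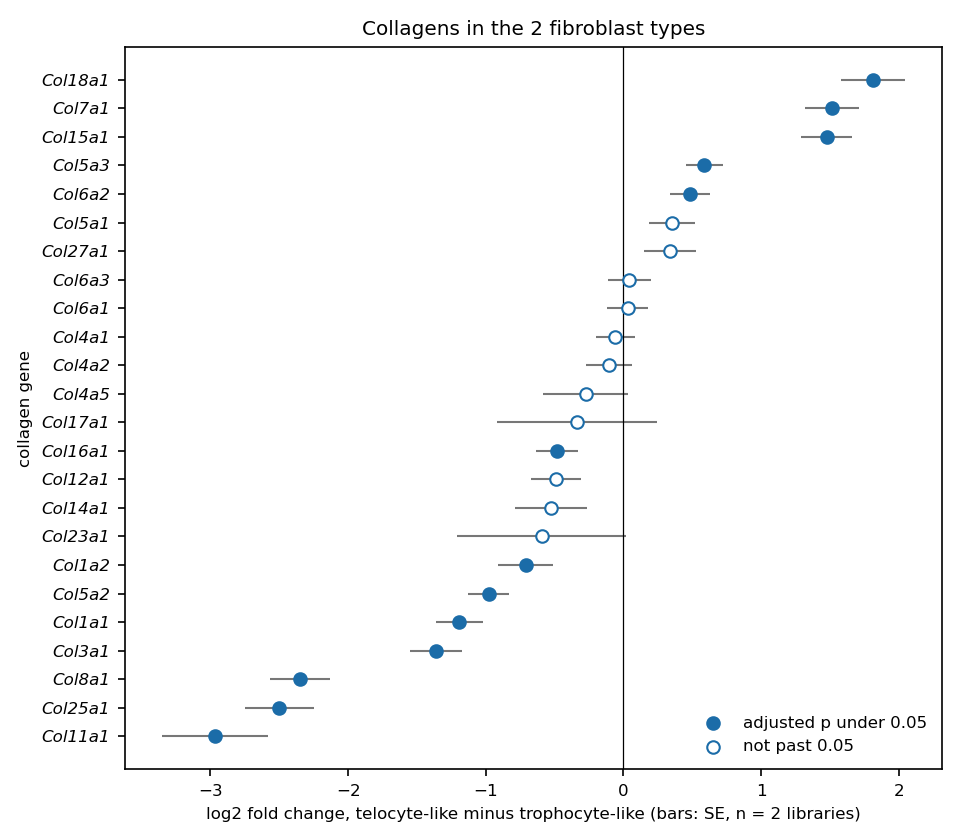
Log2 difference in level between telocyte-like and trophocyte-like fibroblasts (horizontal axis, positive when higher in telocyte-like cells) for the 24 collagen genes tested, with bars of 1 standard error from the edgeR model over 2 stromal libraries. Filled points have an adjusted p under 0.05. The multiplexins Col18a1 (1.81) and Col15a1 (1.48) and Col7a1 (1.52) lie to the right, Col11a1 (−2.97), Col25a1 (−2.50) and Col8a1 (−2.35) to the left, and Col4a1 and Col4a2 at the centre line.

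Of the genes that act on collagen outside the cell, 7 of 10 tested were lower in telocyte-like cells and 1 was higher, beside 12.5% and 10.4% of all genes. Of the 5 tested genes for propeptide cleavage, 4 were lower in telocyte-like cells (Pcolce, Pcolce2, Adamts2 and Bmp1), and 3 of the 5 reached the filter level in both types, all of them lower. Of the 5 lysyl oxidases, Lox, Loxl1 and Loxl3 were lower, Loxl2 was higher and Loxl4 was not called. Lox had 82.3 and 40.6 CPM in telocyte-like against 182 and 190 CPM in trophocyte-like cells (−1.75 ± 0.22, edgeR adjusted p = 1.29e-05). Loxl2, which is known to act on type IV collagen, had 242 and 246 against 157 and 123 CPM (0.74 ± 0.14, edgeR adjusted p = 0.00111). The hydroxylases were split, with Plod1 and P3h2 higher and P4ha3 and Plod2 lower of 13 tested, and of 7 tested chaperone, glycosylation and export genes Fkbp10 was higher.

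Few collagens were called different between trophocyte-like cells and contractile-like fibroblasts, those with Acta2, Tagln and related muscle genes. The contractile-like class was small, at 90 and 78 cells, and 68 and 61 of them only just met the gate. These cells were taken by contractile genes and carried a median of 4 and 3 trophocyte-list genes, against 4 and 4 in trophocyte-like cells. Their median of telocyte-list genes was 2 and 2, against 1 and 1. With such a gate and so few cells, the low count of calls cannot show that the types are alike. The part of the gate in it was not tested. Col5a3 was higher, at 54.0 and 58.8 CPM against 32.0 and 19.5 CPM (log2 difference 0.99 ± 0.17, edgeR adjusted p = 0.00351), and Col3a1 was lower, at 2721 and 3030 CPM against 3721 and 5800 CPM (−0.87 ± 0.19, edgeR adjusted p = 0.013). Neither gene's groups overlapped. These were the 2 called of 24 members, where 2% of all genes were called higher and 2.03% lower, and the count went to 0 when the library was left out of the model. The members' median was −0.09 against −0.03 over all genes. Without TMM scaling 77.6% of all calls were higher, against 49.6% with it, and the same counts of members were called. Col8a1 had 121 and 132 CPM and did not pass the test (0.56 ± 0.21, edgeR adjusted p = 0.168).

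Glia-like cells differed from fibroblasts in both directions, with Col5a2 and Col18a1 far higher and Col1a2, Col3a1 and Col6a3 far lower. Of 24 members tested, 6 were higher and 11 lower than in the fibroblast types, where 15.8% of all genes were called higher and 16.9% lower. The members' median log2 difference was −0.50 against −0.16 over all genes. Here and for the classes below, the reference was the mean of the fibroblast types on the log scale, so a log2 difference need not match the ratio to all fibroblast-like cells. Members could pass the filter through the fibroblasts alone. Col23a1 in endothelium and Col17a1 in squamous-like cells passed it through the class itself and count among the higher calls. In the class itself 19 of the 24 reached the filter level of 5.07 CPM in glia (6 higher and 10 lower), 16 in endothelium (1 and 14), 15 in neurons (1 and 14) and 16 in squamous-like cells (3 and 12).

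Col5a2 was the leading collagen of the glia-like cells. It stood at 3728 and 2776 CPM, against 453 and 473 CPM in fibroblast-like cells of the same libraries. Every glia value exceeded every fibroblast value several-fold, with a log2 difference of 2.92 ± 0.10 (edgeR adjusted p = 5.09e-13). With each cell thinned to 2000 UMIs, 95.9% (exact 95% interval 88.6–99.2%) and 91.9% (82.2–97.3%) of glia-like cells had a Col5a2 UMI, against 55.5% and 57.9% of fibroblast-like cells and 6.50% and 9.09% of squamous-like cells. Unthinned shares were 97.3% and 100% in glia-like cells, 97.0% and 97.3% in fibroblast-like cells and 46.9% and 45.5% in squamous-like cells. Thinning used 74 of 75 and 62 of 66 glia-like cells, whose median depth was 7121 and 7764.5 UMIs, below that of fibroblast-like (15066 and 13313) and squamous-like cells (22367.5 and 26858). All such intervals cover counting error only.

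The other members above fibroblasts in glia came from several families. Col18a1 was at 1308 and 1067 CPM (2.08 ± 0.17, edgeR adjusted p = 3.04e-08), the fibril-associated Col16a1 at 331 and 266 CPM (2.35 ± 0.14, edgeR adjusted p = 7.16e-10) and Col27a1 at 142 and 143 CPM (1.30 ± 0.22, edgeR adjusted p = 0.000162). Col14a1, which binds type I fibrils through decorin, rested on 20 and 51 UMIs, at 38.3 and 104 CPM (4.03 ± 0.29, edgeR adjusted p = 2.44e-08). For these 4 genes both glia values lay above both fibroblast values. Col11a1 was also called (1.92 ± 0.61, edgeR adjusted p = 0.023), but its glia values of 5.74 and 26.6 CPM came from 3 and 13 UMIs and overlapped the fibroblast values of 8.32 and 4.25 CPM.

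The chains of type I differed from each other in glia. Col1a1 was at 969 and 873 CPM, a modest difference from fibroblasts (−0.54 ± 0.14, edgeR adjusted p = 0.00823) that was not called with a looser gate. Col1a2 was at 149 and 94.2 CPM (−3.92 ± 0.23, edgeR adjusted p = 4.19e-10) and Col3a1 at 236 and 199 CPM (−3.84 ± 0.21, edgeR adjusted p = 1.13e-10). The ratio of Col1a1 to Col1a2 UMIs was therefore 6.49 (exact 95% interval 5.10–8.34) and 9.26 (6.82–12.8) in glia-like cells against 0.788 and 0.710 in fibroblast-like cells. Type I collagen is usually a heterotrimer of both chains, and a homotrimer of alpha 1 chains is also known.

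The same unevenness was present in types V and VI. Col5a1, the usual partner of Col5a2, was at 216 and 195 CPM in glia, so that the ratio of Col5a1 to Col5a2 was 0.0580 and 0.0701 against 0.542 and 0.641 in fibroblast-like cells. Col6a1 did not pass the test (458 and 438 CPM, 0.34 ± 0.13, edgeR adjusted p = 0.0577), Col6a2 was lower at 109 and 104 CPM (−0.84 ± 0.17), and Col6a3 was at 32.5 and 22.5 CPM (−3.56 ± 0.24, edgeR adjusted p = 1.84e-09). The ratio of Col6a3 to Col6a1 was 0.0711 and 0.0514 in glia-like cells against 0.867 and 0.910 in fibroblast-like cells. No glia interval reached a fibroblast interval in any of these ratios.

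**Figure D3:**
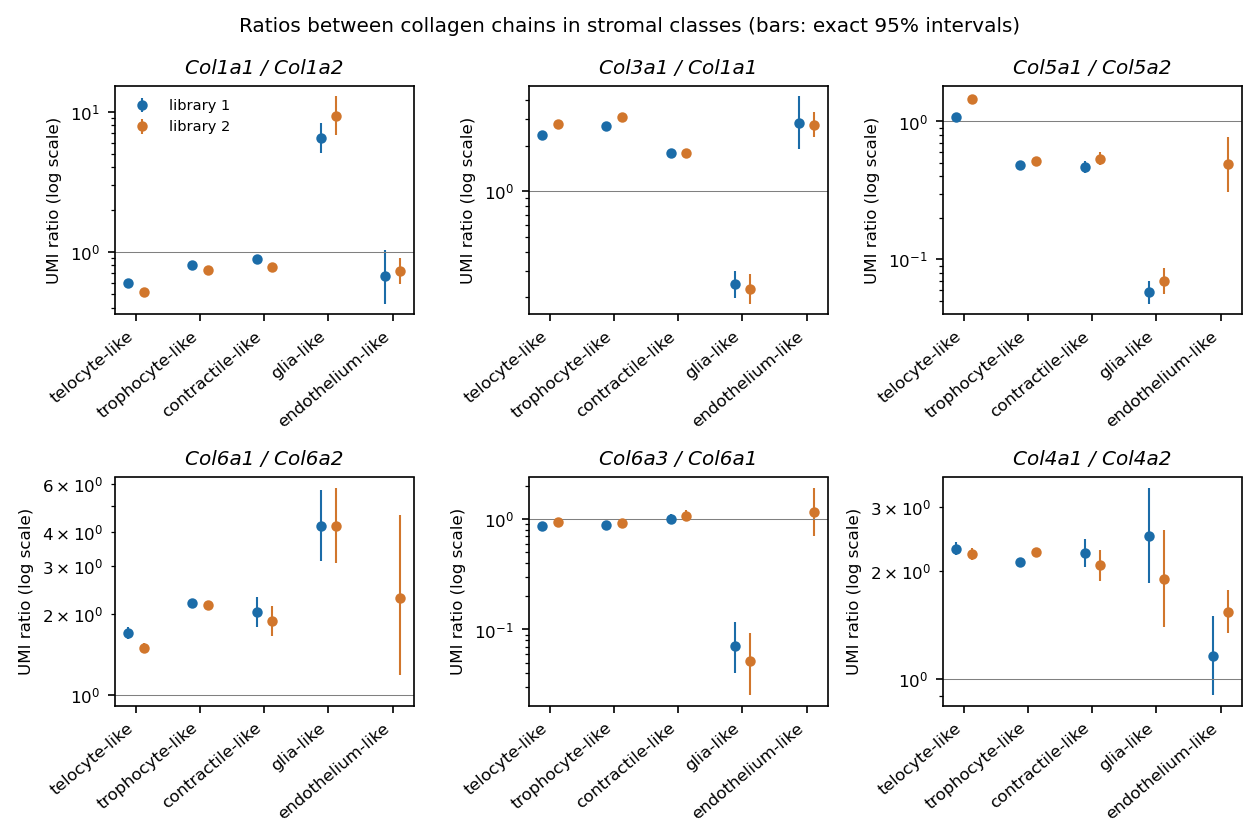
Ratio of the UMIs of 2 collagen chains (log axis) for 6 pairs in 5 stromal classes of both libraries, with exact 95% intervals that cover counting error only; endothelium-like cells of library 1 are not drawn for 3 pairs with few UMIs. Glia-like cells stand apart from the fibroblast types for Col1a1 over Col1a2 (6.49 and 9.26), Col5a1 over Col5a2 (0.0580 and 0.0701) and Col6a3 over Col6a1 (0.0711 and 0.0514).

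Glia carried some RNA of fibroblast genes, and its amount was measured with 8 fibroblast genes that were in no gate and are not collagens (Postn, Ccdc80, Pcolce, Cthrc1, Mfap5, Sfrp1, Dpt and Lox). Their median level in glia-like cells was 5.63% and 5.39% of that in fibroblast-like cells, but the range ran from 0 to 1389% and from 3.36% to 2742%. Postn (1191% and 506%) and Cthrc1 (1389% and 2742%) were higher in glia than in fibroblasts, and the other 6 genes stood at no more than 7.89%. Col1a2 stood at 8.86% and 4.06%, Col3a1 at 7.30% and 4.16% and Col6a3 at 11.6% and 6.50%. Col1a1, at 73.0% and 52.9%, lay above those 6 genes and below Postn and Cthrc1. Col5a2 at 824% and 587% and Col18a1 at 519% and 441% lay above the 6 genes too and inside the range of all 8. The 8 fibroblast gate genes together had 500 and 524 CPM in glia-like cells.

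Col4a1 (301 and 260 CPM, −1.13 ± 0.14) and Col4a2 (121 and 137 CPM, −1.11 ± 0.18) were lower in glia than in the fibroblast types. So were Col15a1 (11.5 and 22.5 CPM, −2.38 ± 0.35), Col12a1 (11.5 and 24.6 CPM, −3.20 ± 0.32) and Col5a1 (−0.47 ± 0.17, edgeR adjusted p = 0.0369), whose call was lost with DESeq2 and without the library block. Col25a1 had no UMI in glia-like cells and 2505 in fibroblast-like cells, which makes it at least 3.19-fold lower against a floor of 3 UMIs over both libraries. Among genes that act on collagen, 8 of 13 hydroxylation genes, 5 of 7 chaperone and export genes and 2 of 5 lysyl oxidases were lower in glia, beside 16.9% of all genes lower and 15.8% higher. Of the genes that reached 5.07 CPM in glia-like cells themselves, 8 of 12, 5 of 7 and 1 of 3 were lower. Pcolce, the enhancer of propeptide cleavage, was at 28.7 and 18.4 CPM (−4.25 ± 0.22). The lysyl hydroxylase and glycosyltransferase Plod3 was higher, at 431 and 326 CPM against 89.0 and 81.9 CPM in fibroblast-like cells. Of 6 collagen receptors 4 were higher, beside 15.8% of all genes, among them the receptor kinase Ddr1 at 89.99 and 73.7 CPM against 20.8 and 20.7 CPM (2.12 ± 0.21, edgeR adjusted p = 4.16e-07) and the integrin chain Itgb1 at 802 and 803 CPM against 385 and 378 CPM (0.87 ± 0.10), and Ddr2 and Mrc2 were lower.

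Endothelium-like cells, which bore lymphatic genes such as Lyve1 and Ccl21a, carried Col4a2 at a level that was not called different from fibroblasts, Col4a1 and Col18a1 somewhat lower, Col23a1 higher and most other collagens well below the fibroblast level. Of 24 members 1 was higher and 19 lower than in the fibroblast types, where 15% of all genes were called higher and 17.8% lower, 32.8% in either direction, and the members' median was −3.46 against −0.15. With members at 0 set to their bound the members' median was −3.10. Col4a2 was at 438 and 265 CPM and did not pass the test (0.22 ± 0.15, edgeR adjusted p = 0.288), while Col4a1 at 507 and 407 CPM (−0.49 ± 0.13, edgeR adjusted p = 0.00615, not called with a looser gate) and Col18a1 at 217 and 121 CPM (−0.88 ± 0.23, edgeR adjusted p = 0.00693) were somewhat lower. The ratio of Col4a1 to Col4a2 was 1.16 (exact 95% interval 0.901–1.49) and 1.54 (1.34–1.77), below the 2.17 and 2.25 of fibroblast-like cells.

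The only member called higher in endothelium-like cells was Col23a1, a transmembrane collagen, with 14 and 49 UMIs or 51.5 and 38.1 CPM against 0.654 and 1.53 CPM in fibroblast-like cells (5.13 ± 0.51, edgeR adjusted p = 6.35e-07). Both endothelial values were far above both fibroblast values. No other class reached the filter level of 5.07 CPM for this gene in both libraries, so it was tested through endothelium-like cells. Fibrillar chains were low, with Col1a1 at 132 and 117 CPM, Col1a2 at 199 and 161 CPM and Col3a1 at 371 and 323 CPM. Col1a1 and Col1a2 each fell by 3.47 on the log2 scale and Col3a1 fell by 3.23. Type VI chains were at 22.1 and 24.9 CPM (Col6a1), 14.7 and 10.9 CPM (Col6a2, −4.15 ± 0.26, edgeR adjusted p = 1.04e-09) and 33.1 and 28.7 CPM (Col6a3). Col5a1 was at 29.4 and 24.1 CPM, Col5a2 at 62.5 and 48.95 CPM and Col15a1 at 11.0 and 6.99 CPM. The 8 non-collagen fibroblast genes had a median of 7.33% (0–48.9%) and 6.19% (2.80–16.9%) of their fibroblast level in these cells, against 93.2% and 64.6% for Col4a1 and 174% and 94.7% for Col4a2. Col5a3 had 2 UMIs, a ratio to fibroblast-like cells of 0.0382 (exact interval 0.00463–0.138). Col14a1 and Col7a1 had no UMI, at least 2.44-fold and 1.93-fold lower with both libraries pooled.

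Neuron-like cells had less of nearly every collagen tested, and more of Col11a1. Of 24 members, 21 were lower and 1 was higher than in the fibroblast types, where 22.5% of all genes were called higher and 24.4% lower, with a median of −3.37 over members (−3.09 with members at 0 set to their bound) and −0.10 over all genes. Without TMM scaling 58.2% of all calls were higher, against 48.0% with it, and 1 member was higher and 20 lower. Col11a1 was at 46.1 and 37.7 CPM from 27 and 36 UMIs, above both fibroblast values of 8.32 and 4.25 CPM (3.20 ± 0.37, edgeR adjusted p = 2.11e-06). Col1a1 (83.6 and 76.5 CPM), Col1a2 (80.2 and 94.3 CPM) and Col3a1 (194 and 223 CPM) stood at 4.06% to 6.30% of their fibroblast level, against a median of 4.20% and 6.23% for the 8 non-collagen fibroblast genes. Col4a1 was at 64.8 and 73.3 CPM, Col18a1 at 111 and 46.1 CPM, Col12a1 at 8.53 and 9.43 CPM (−4.26 ± 0.32) and Col15a1 at 1.71 and 4.19 CPM (−4.92 ± 0.44).

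Squamous-like cells held the collagens of the epidermal attachment complex. Of 24 members, 3 were higher and 19 lower than in the fibroblast types, where 27.8% of all genes were called higher and 31.8% lower, 59.7% in either direction, and the members' median was −3.37 against −0.08. Without TMM scaling 32.1% of all calls were higher, against 46.7% with it, and the members' counts were the same. Col17a1, the transmembrane collagen of hemidesmosomes, was at 199 and 136 CPM from 2702 and 92 UMIs, against 2.49 and 0.421 CPM in fibroblast-like cells (6.97 ± 0.26, edgeR adjusted p = 7.33e-12). It was tested through squamous-like cells, the only class to reach the filter level of 5.07 CPM in both libraries. Col7a1 was at 17.7 and 10.3 CPM from 241 and 7 UMIs (2.01 ± 0.20, edgeR adjusted p = 3.56e-07), and Col4a5 at 8.24 and 7.37 CPM from 112 and 5 UMIs (1.07 ± 0.32, edgeR adjusted p = 0.00958). For all 3 genes both squamous values lay above both fibroblast values, and replicate 2 rested on 22 cells. The call of Col4a5 was lost with DESeq2 and without the library block. Cells that met no gate had 86.1 and 37.7 CPM of Col17a1.

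After thinning to 2000 UMIs, 31.4% (exact 95% interval 27.6–35.5%) and 13.6% (2.91–34.9%) of squamous-like cells had a Col17a1 UMI, against 0.460% and 0.116% of fibroblast-like cells. The unthinned shares were 91.2% and 81.8% against 3.88% and 0.639%. Col17a1 differed between the whole stromal libraries, at 25.9 and 1.65 CPM, and squamous-like cells numbered 556 and 22 in them. Replicate 1 was also the higher library within fibroblast-like, squamous-like and unassigned cells, and the part of each class in the difference was not tested. The bases just before a gene's start are a usual place for promoter elements, and for Col17a1 this stretch is shown because the gene led the differences of the squamous-like cells. It runs on the minus strand at chr19:47692095-47692242 (GRCm38.p6, RefSeq), ends 53 bases before the annotated start, and has capitals at TATAAA, the TATA box letters, which occur at 140 and 91 bases before the start.

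Col17a1: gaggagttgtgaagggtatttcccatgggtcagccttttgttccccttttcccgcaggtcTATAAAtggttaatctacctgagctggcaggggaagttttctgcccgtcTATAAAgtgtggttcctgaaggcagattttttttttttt

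Searched on both strands, TATAAA was found in 5 of 38 collagen promoters (Col3a1, Col10a1, Col13a1, Col11a2 and Col17a1) and in 12.4% of all 32851 promoters of the same length. Such a match is a description of the letters in the window only.

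In squamous-like cells 2 tested members were not called, Col18a1 and Col23a1. Col23a1 had 1.03 CPM in replicate 1 against 0.654 CPM in fibroblast-like cells (0.37 ± 0.72, edgeR adjusted p = 0.691). The multiplexin Col18a1 was at 188 and 234 CPM, against 252 and 242 CPM (−0.20 ± 0.20, edgeR adjusted p = 0.401). Col1a1 (97.9 and 67.8 CPM, −3.68 ± 0.18), Col1a2 (106 and 78.1 CPM, −4.00 ± 0.22), Col5a1 (21.5 and 10.3 CPM, −3.54 ± 0.20), Col6a2 (13.2 and 8.84 CPM, −3.54 ± 0.18) and Col12a1 (15.5 and 2.95 CPM, −3.51 ± 0.23) were lowest relative to fibroblasts. Col3a1 was at 267 and 205 CPM. These levels lay within the range of the 8 non-collagen fibroblast genes, 4.70% to 16.8% of the fibroblast level in replicate 1 with a median of 6.03%, and 2.62% to 12.9% in replicate 2 with a median of 5.74%, save Col12a1 in replicate 2 at 2.47%.

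In epithelium the collagens were scarce, and each of the 3 sources had a different leading gene. Epithelium-like cells numbered 27987 and 6916 for assembloids, 4856 and 7440 for organoids and 4605 and 4269 for tissue, and the comparisons below are over these cells.

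Tissue epithelium carried Col8a1. It had 2370 and 1982 UMIs, or 50.5 and 53.7 CPM, in tissue, 1.87 and 1.73 CPM in assembloids and 0.149 and 0.0867 CPM in organoids. Both tissue values were far above all 4 culture values, with log2 differences of −4.47 ± 0.28 for assembloids (edgeR adjusted p = 1.91e-05) and −8.41 ± 0.36 for organoids against tissue (edgeR adjusted p = 3.75e-06). Organoids were also below assembloids (−3.94 ± 0.32, edgeR adjusted p = 6.71e-05). At 2000 UMIs per cell, 6.85% (exact 95% interval 5.88–7.93%) and 6.98% (6.06–7.997%) of tissue cells had a Col8a1 UMI, against 0.414% and 0.276% in assembloids and 0.0210% and 0.0217% in organoids. The unthinned tissue shares were 10.0% and 11.4%, and 2168 and 1505 tissue cells were too shallow to be thinned.

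Within tissue, Col8a1 was highest in cells led by secretory genes. Cells in which a list of 8 goblet cell genes led had 68.5 and 73.6 CPM (2145 and 1742 UMIs), while cells in which 8 colonocyte genes led had 0.464 and 1.84 CPM (1 and 2 UMIs). The goblet-led class took 3795 of 4605 and 3267 of 4269 tissue cells, with median depths of only 1270 and 2631 UMIs. Cells in which no list led (650 and 892) had 14.8 and 18.6 CPM from 190 and 221 UMIs, and the 14 and 5 cells led by crypt progenitor genes had 3 and 0 UMIs. The few cells led by enteroendocrine genes, 13 and 11 in number, had 172 (exact 95% interval 117–244) and 159 (92.6–254) CPM. In organoids, where 44 and 133 cells were goblet-led, Col8a1 had 1.07 and 0 CPM in those cells, and in assembloids, with 5649 and 2464 such cells, it had 2.63 and 0.971 CPM. The Col8a1 levels of goblet-led cells did not overlap between tissue and either culture. The lists were added after the values were seen, and whether goblet-led cells of the 3 sources are alike was not tested. The part of cell composition in the Col8a1 difference was not tested either. The enteroendocrine-led cells of the cultures were few and their replicates differed. Organoids had 125 CPM (75.2–195) in 7 cells of replicate 1 and 19.5 CPM (2.36–70.4, 2 UMIs) in 9 cells of replicate 2, and assembloids had no UMI in 12 cells of replicate 1 (up to 32.5 CPM) and 50.4 CPM (29.4–80.8) in 23 cells of replicate 2.

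The 200 bases before the Col8a1 start are shown because this gene made up most of the collagen of tissue epithelium. They lie on the minus strand at chr16:57754738-57754937 (GRCm38.p6, RefSeq), and capitals mark the GC box, GGGCGG on the other strand, which begins 170, 73, 66 and 23 bases before the start.

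Col8a1: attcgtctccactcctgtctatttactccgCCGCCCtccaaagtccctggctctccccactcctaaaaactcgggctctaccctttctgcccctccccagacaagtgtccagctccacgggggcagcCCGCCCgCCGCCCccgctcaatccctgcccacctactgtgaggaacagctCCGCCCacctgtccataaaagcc

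GGGCGG was found on either strand in 22 of 38 collagen promoters and in 32.7% of all 32851. CCAAT was in 13 of 38 against 33.8%, and TGANTCA, a site of AP-1 factors, in 1 (Col6a1) against 6.75%.

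Among other members, both tissue values lay above all 4 culture values for Col16a1, Col20a1 and Col28a1, and also for the low Col6a5, Col9a2 and Col17a1, none of which passed 0.380 CPM. Col9a2 had 6 and 2 tissue UMIs, and how many of all genes separate in this way was not counted. Col16a1 had 6.65 and 5.10 CPM in tissue, 1.47 and 1.02 in assembloids and 0.416 and 0.282 in organoids, and both cultures were below tissue (−1.83 ± 0.41, edgeR adjusted p = 0.00608 and −3.77 ± 0.45, edgeR adjusted p = 0.000258). Col20a1 had 3.05 and 3.47 CPM in tissue, 1.11 and 2.35 in assembloids and 0.592 and 1.22 in organoids. It was called lower in organoids (−1.66 ± 0.42, edgeR adjusted p = 0.0111) and not in assembloids (−0.57 ± 0.41, edgeR adjusted p = 0.269), and the direct comparison of organoids with assembloids missed the threshold (−1.09 ± 0.41, edgeR adjusted p = 0.0511). Col28a1 had 1.66 and 2.47 CPM in tissue, 0.784 and 0.756 in assembloids and 0.554 and 1.26 in organoids, with no call (−1.04 ± 0.43 and −1.02 ± 0.43).

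Organoid epithelium carried the type IV pair. Col4a1 had 27.9 and 43.8 CPM in organoids, 34.5 and 16.5 CPM in assembloids and 0.767 and 0.705 CPM in tissue. Col4a2 had 25.6 and 45.8 CPM, 25.6 and 12.3 CPM, and 1.04 and 0.434 CPM. The 4 culture values lay above both tissue values, with log2 differences for organoids against tissue of 5.81 ± 0.47 (Col4a1, edgeR adjusted p = 3.67e-05) and 5.75 ± 0.55 (Col4a2, edgeR adjusted p = 8.38e-05). Organoids and assembloids overlapped for Col4a1 (0.29 ± 0.35, edgeR adjusted p = 0.519), while for Col4a2 the lowest organoid value (25.62 CPM) lay just above the highest assembloid value (25.55 CPM) and the difference did not pass the test (0.70 ± 0.42, edgeR adjusted p = 0.189). Over all passing cells, which include the fibroblast-like cells of the assembloid libraries, Col4a1 was lower in organoids (−0.74, edgeR adjusted p = 0.0096). Most organoid cells were led by crypt progenitor genes (4348 and 3940 cells), and these had 28.2 and 45.3 CPM of Col4a1, against 7.48 and 12.1 CPM in the goblet-led cells, which held 7 and 10 UMIs.

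In depth-matched cells both cultures again lay above tissue for Col4a1. After thinning, 4.68% and 8.32% of organoid cells, 6.92% and 2.89% of assembloid cells and 0.205% and 0.109% of tissue cells had a UMI. The unthinned shares were 44.8% and 26.6%, 14.1% and 10.4%, and 0.499% and 0.515%. The ratio of Col4a1 to Col4a2 was 1.09 and 0.957 in organoids, 1.35 and 1.34 in assembloid epithelium and 2.17 and 2.25 in fibroblast-like cells.

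Col4a1 and Col4a2 are divergent neighbours, Col4a1 at chr8:11198423-11312826 on the minus strand and Col4a2 at chr8:11312805-11449287 on the plus strand (GRCm38, GENCODE M21). The 2 gene models overlap by 22 bases, chr8:11312805-11312826, printed here on the plus strand because both genes start in this stretch: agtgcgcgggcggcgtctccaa. The pair Col4a4 and Col4a3 is arranged alike with a gap of 71 bases and Col4a6 and Col4a5 with 1308 bases. Col3a1 and Col5a2 are tail to tail on chromosome 1 with 24614 bases between them, and their ratio was 7.13 and 10.1 in fibroblast-like cells and 0.0632 and 0.0716 in glia-like cells.

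Of the 44 members, 36 passed the filter on low counts in the epithelial comparisons, and 16 of them did not reach the level of that filter, 0.0996 CPM in at least 2 libraries, in organoids or in tissue. In organoids against tissue 8 were higher and 6 lower, where 24.3% of all genes were called higher and 22.9% lower, 47.2% in either direction, and the members' median was 0 against 0.06 over all 19296 genes. Of those called higher, Col4a5, Col26a1, Col13a1 and Col14a1 were under the filter level in both tissue libraries and passed it only through cultures. Of those called lower, Col6a5 and Col15a1 were under it in both organoid libraries. Of the 36, 9 had at most 3 UMIs in each of these sources, so that no call was possible for them, and the median of the other 27 was −0.47. The count of 14 calls was 7 without organoid replicate 1 and 9 without either tissue library. The basement membrane network had 4 of 5 tested genes higher (Col4a1, Col4a2, Col4a4 and Col4a5). Col4a5 had 191 UMIs in organoids and 2 in tissue, a ratio of 28.6 (exact 95% interval 7.81–238), Col26a1 had 95 and 1 (28.5, 4.98–1135) and Col13a1 had 25 and 1 (7.49, 1.23–307), a call of Col13a1 that was lost under 10 of 18 alternatives. Col4a4 (0.656 and 0.888 against 0.170 and 0.325 CPM, 1.87 ± 0.50, edgeR adjusted p = 0.0141), Col14a1 (0.213 and 0.184 against 0.0639 and 0.0813 CPM, 1.72 ± 0.56, edgeR adjusted p = 0.0338) and Col18a1 (0.890 and 3.42 against 0.384 and 0.244 CPM, 2.88 ± 0.66, edgeR adjusted p = 0.00699) were the others that rose. Besides Col8a1, Col16a1 and Col20a1, Col6a5 (0.0107 and 0.0325 against 0.170 and 0.380 CPM, −3.51 ± 0.75, edgeR adjusted p = 0.00512), Col15a1 (0.0213 and 0.0325 against 0.149 and 0.136 CPM, −2.17 ± 0.61, edgeR adjusted p = 0.018) and Col25a1 (0.155 and 0.292 against 1.34 and 0.596 CPM, −1.94 ± 0.57, edgeR adjusted p = 0.0222) were lower. Of these calls Col14a1 was lost under 8 of 18 alternatives, Col15a1 and Col25a1 under 5 each, Col4a4 under 3 and Col20a1 and Col6a5 under 2 each. Apart from Col8a1, Col4a1 and Col4a2, these called genes had at most 6.65 CPM in any of the 4 libraries.

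Fibrillar and beaded filament chains were at or near 0 in organoid and tissue epithelium, where most of them could not be compared. Col1a2, Col5a1, Col6a1, Col6a2 and Col6a3 had no UMI in any of these 4 libraries. Col3a1 had 2 UMIs in organoids and none in tissue, Col1a1 had 4 and 2, and Col5a2 had 10 and 0. Col12a1 had 8 and 1. A count of 0 allows up to 0.0637 and 0.0811 CPM in a whole tissue library.

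In assembloid epithelium the same chains were present in both libraries. Col3a1 had 112 and 45.1 CPM, Col1a2 had 39.0 and 15.4 CPM and Col1a1 had 32.6 and 13.2 CPM. Col5a1 had 7.07 and 2.78 CPM, Col5a2 14.3 and 6.36, Col6a1 7.37 and 4.43, Col6a2 6.51 and 3.02, Col6a3 1.93 and 1.79 and Col12a1 19.3 and 5.39. For every one of these genes replicate 1 was the higher library, and both exceeded all organoid and tissue values.

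**Figure D4:**
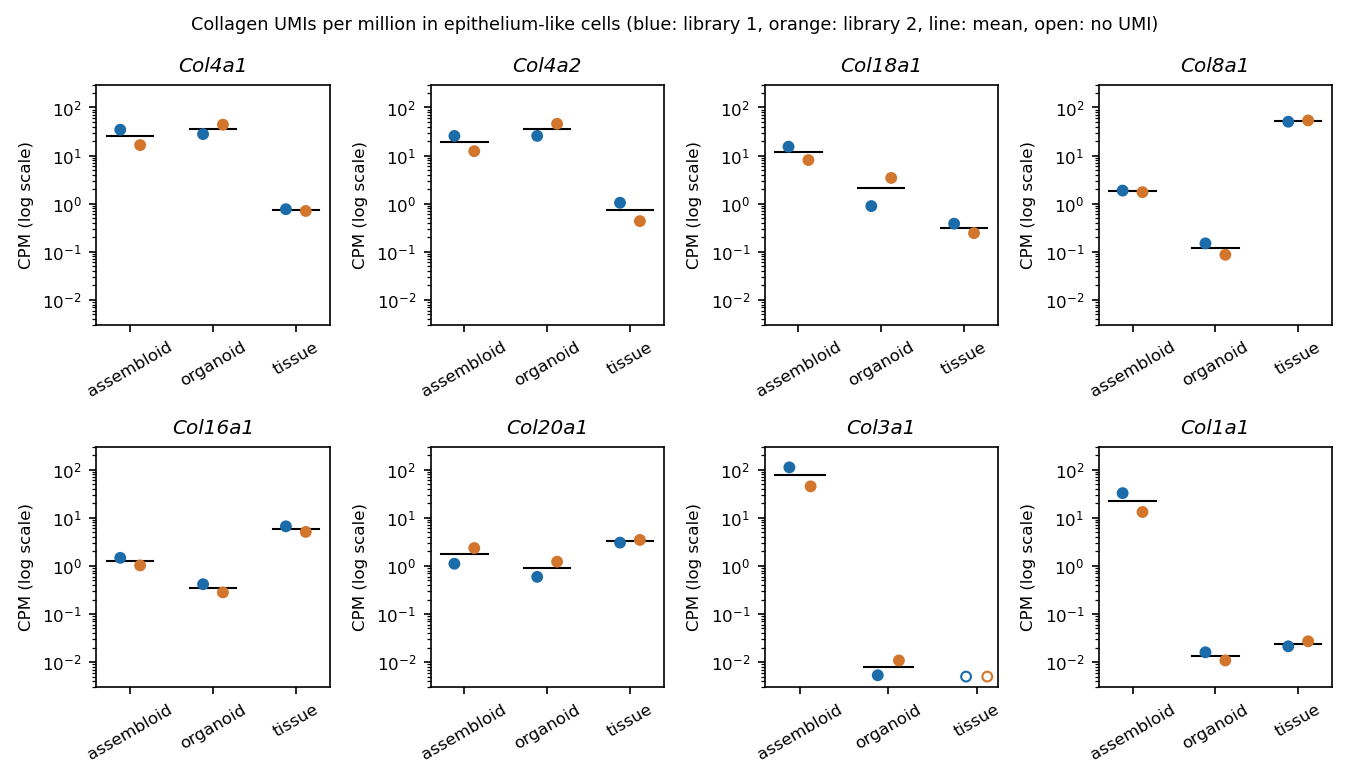
Level of 8 collagen genes in the epithelium-like cells of the 6 epithelial libraries (CPM, log axis). Points are libraries, the line is the mean of 2 libraries and open points mark no UMI. Col8a1, Col16a1 and Col20a1 are highest in tissue, Col4a1 and Col4a2 are high in both cultures, and Col3a1 (112 and 45.1 CPM) and Col1a1 (32.6 and 13.2 CPM) stand high in assembloids and at or near 0 elsewhere.

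Against tissue, 26 of 36 members were higher in assembloid epithelium and 2 lower, where 27% of all genes were called higher and 23.3% lower, 50.3% in either direction. The median was 4.53 over members and 0.03 over all genes. These counts include 19 members that did not reach the level of the filter in tissue and so had passed it through the cultures. Of the 17 that reached it in tissue, 7 were higher and 2 lower, with a median of 1.01. Without TMM scaling 38.7% of all calls were higher, against 53.7% with it, and 24 members were higher and 3 lower. Bounds were taken with both assembloid libraries pooled, against a floor of 3 UMIs over both tissue libraries. Col3a1 was at least 2393-fold higher (23717 UMIs), Col1a2 at least 833-fold (8253 UMIs) and Col5a2 at least 313-fold. Col6a1 was at least 174-fold higher, Col5a1 at least 151-fold, Col6a2 at least 144-fold and Col6a3 at least 52.4-fold. Replicate 1 held 18829 of the Col3a1 UMIs, and bounds from replicate 2 alone would be lower for all 7 genes. Col1a1 had 6920 UMIs against 2, a ratio of 1047 (exact 95% interval 290–8649). By family, 8 of 9 fibrillar, 5 of 5 basement membrane, 2 of 2 multiplexin, 4 of 5 beaded filament and 5 of 7 fibril-associated genes were higher, Col8a1 and Col16a1 being the 2 that fell. The calls of Col4a3 and Col4a4 were each lost under 10 of 18 alternatives, and that of Col19a1, a fibril-associated gene, under 5.

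Compared with assembloids, 27 members were lower in organoids and none was higher, where 29.3% of all genes were called lower and 24.7% higher. DESeq2 also called none of these genes higher, and 29 members had an unadjusted edgeR p under 0.05. The median was −2.97 over members and −0.02 over all genes. Of the 14 members that reached the level of the filter in organoids, 7 were lower, with a median of −1.51. With both libraries of each source pooled and a floor of 3 UMIs in organoids, Col1a2 was at least 2780-fold lower and Col6a1 at least 580-fold. Col5a1 was at least 503-fold lower, Col6a2 at least 480-fold and Col6a3 at least 175-fold. Bounds from assembloid replicate 2 alone would be lower. Col1a1 was lower by 10.68 ± 0.72 on the log2 scale (edgeR adjusted p = 3.18e-05). The 3 epithelial comparisons share their libraries, so their counts are not independent of each other.

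Fibroblast RNA was measured in the same assembloid epithelial libraries. They held 266 and 227 fibroblast-like cells. In their epithelium-like cells the 8 fibroblast gate genes together had 185 and 80.2 CPM, and the 8 non-collagen fibroblast genes that were in no gate had a median of 3.09% (2.01–10.7%) and 1.34% (0.765–3.18%) of their level in the fibroblast-like cells of the same library. The chains of types I, III and V stood at 2.45% to 3.19% in replicate 1 and 1.04% to 1.49% in replicate 2, next to those medians and inside those ranges. Of the same 8 genes, 7 were higher in assembloids than in tissue (median 6.18 on the log2 scale) and 8 were lower in organoids than in assembloids (median −5.60).

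When only the 16771 and 4521 epithelium-like cells with no UMI of the 8 gate genes were used, Col3a1 was at 30.2 and 9.59 CPM and Col1a1 at 9.48 and 2.28 CPM, and 18 members were higher and 2 lower than in tissue of 31 tested, beside 24.8% of all 17748 genes higher and 22.5% lower in the same cells. The same selection left 2237 of 4856 and 5298 of 7440 organoid cells and 4539 of 4605 and 4208 of 4269 tissue cells. It was not a planned setting. Organoid epithelium-like cells had a mean of 0.541 and 0.288 of the gate genes before it, so it took out many organoid cells too. Of the 28 members called in all epithelium-like cells, 4 were no longer tested in this subset and 4 lost their call (Col4a3, Col4a4, Col15a1 and Col27a1). In these cells Col4a1 was at 19.5 and 8.96 CPM and Col4a2 at 17.0 and 7.47 CPM, below the organoid values of 30.5 and 45.3 CPM for Col4a1 and 27.2 and 49.1 CPM for Col4a2. In these cells the test of organoids against assembloids called 19 of 31 members lower and 2 higher, beside 26.6% of all genes lower and 22.7% higher. The 2 called higher in organoids were Col4a1, by 1.14 ± 0.37 (edgeR adjusted p = 0.0338), and Col4a2, by 1.35 ± 0.43 (edgeR adjusted p = 0.0313), on the log2 scale. Over all epithelium-like cells neither of the 2 genes had passed this test. Col18a1 was at 10.3 and 5.59 CPM and differed from tissue by 5.19 ± 0.67 (edgeR adjusted p = 0.000538) and from organoids by −2.08 ± 0.55 for organoids against assembloids (edgeR adjusted p = 0.0135).

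Of the 26 members with at least 1 CPM in the fibroblast-like cells of both assembloid epithelial libraries, 7 were above all 8 of these genes in both. Col7a1 stood at 24.9% and 91.5% of its level in fibroblast-like cells of the same library, Col20a1 at 41.0% and 87.7%, Col25a1 at 69.4% and 35.2%, Col13a1 at 26.3% and 30.1%, Col14a1 at 21.8% and 17.7%, Col4a4 at 17.96% and 33.7% and Col4a5 at 11.3% and 9.43%. These were members of low level in both cell types, resting on 2 to 23 UMIs in fibroblast-like cells. The exact interval of the ratio lay above the range in both libraries for 3 of the 7, Col14a1, Col20a1 and Col25a1. The other 18 members were under 1 CPM in fibroblast-like cells of at least 1 library, among them Col23a1 with 1106 and 119 UMIs in epithelium-like cells against 1 and 9, and Col28a1 with 132 and 82 against 1 and 1. Col4a1 (4.37% and 2.04%), Col4a2 (5.41% and 2.82%) and Col18a1 (4.11% and 2.93%) lay above the median and within the range.

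**Figure D5:**
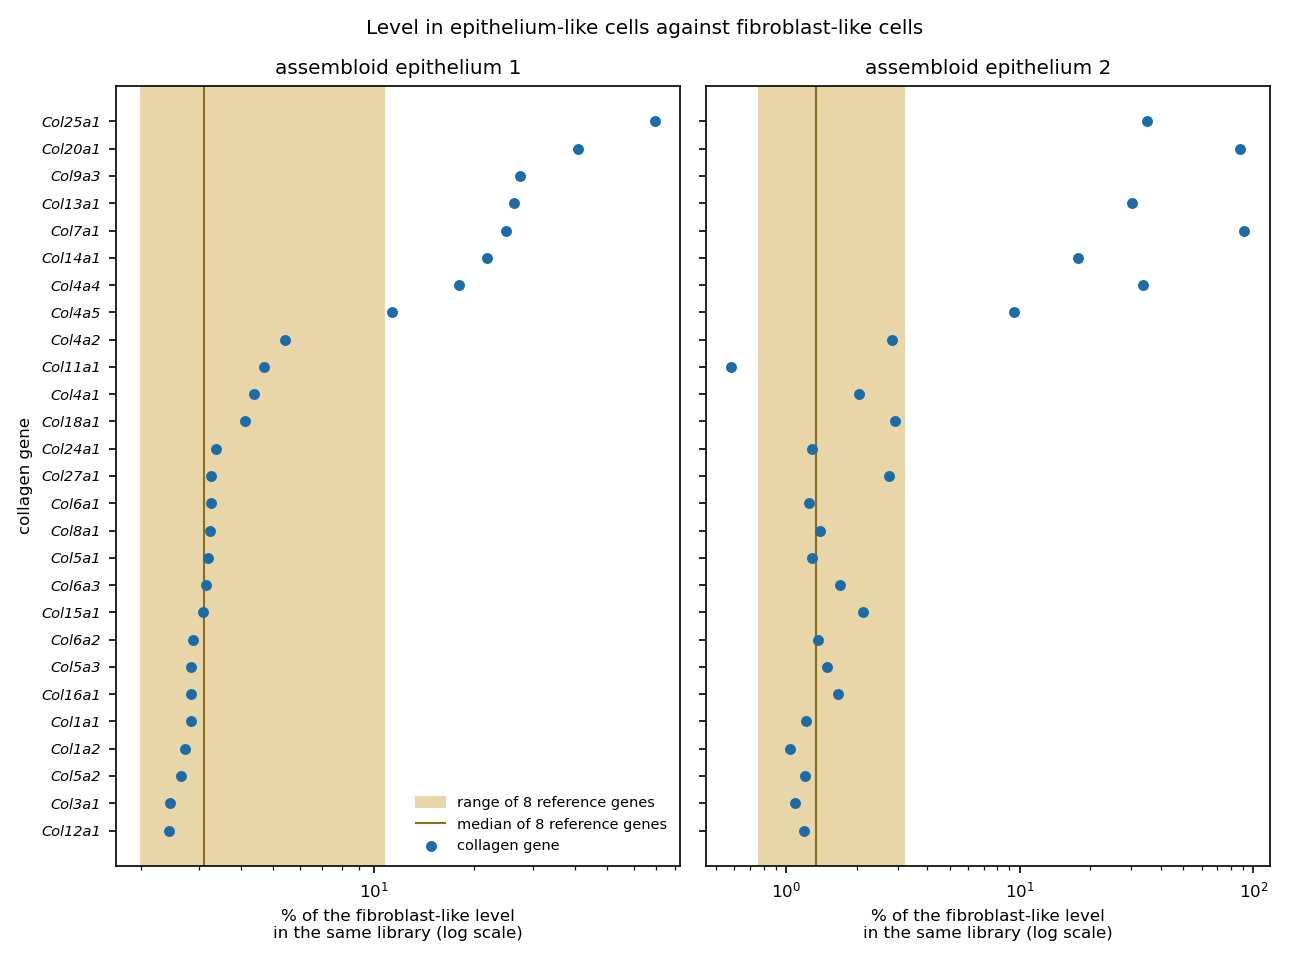
Level of collagen genes in assembloid epithelium-like cells as a percentage of the level in fibroblast-like cells of the same library (log axis), with a panel for each library. The band spans the 8 non-collagen fibroblast genes (2.01–10.7% and 0.765–3.18%) and the line is their median (3.09% and 1.34%). Genes are drawn where they had 1 CPM or more in the fibroblast-like cells of replicate 1, and for replicate 2 where they also had it there. The chains Col1a1, Col1a2, Col3a1, Col5a1, Col5a2 and Col6a1 to Col6a3 lie in the band, and 7 genes, among them Col7a1, Col20a1 and Col25a1, lie above it in both libraries, on 2 to 23 UMIs in fibroblast-like cells.

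The fibroblast-like cells caught in the epithelial libraries differed in chain ratios from those of the stromal libraries. Their ratio of Col6a3 to Col6a1 was 0.270 and 0.297, against 0.867 and 0.910, and that of Col12a1 to Col1a2 was 0.551 and 0.305, against 0.116 and 0.0514. The ratio of Col4a1 to Col4a2 was 1.67 and 1.85. In epithelium-like cells of the same libraries Col6a3 to Col6a1 was 0.262 and 0.403 and Col12a1 to Col1a2 was 0.494 and 0.349. Their ratio of Col4a1 to Col4a2, 1.35 and 1.34, was below that of the fibroblast-like cells of either library, and its exact intervals did not meet theirs. The labelled compartment and the counting version both separate these libraries and cannot be told apart here.

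The remaining members of the epithelial comparisons were low. Col18a1 had 15.3 and 8.07 CPM in assembloids, with 0.890 and 3.42 CPM in organoids and 0.384 and 0.244 CPM in tissue, and assembloids exceeded both other sources (5.602 ± 0.68 against tissue, edgeR adjusted p = 0.000327). Col15a1 had 0.849 and 0.9495 CPM in assembloids (3.02 ± 0.50 against tissue, edgeR adjusted p = 0.00147, not called in the cells with no UMI of the gate genes), and Col14a1 had 1.42 and 1.56 CPM (4.72 ± 0.54, edgeR adjusted p = 0.000241). Both assembloid values of each gene were above all other epithelial values. Col7a1 had 0.540 and 1.05 CPM in assembloids, with 0.0427 and 0.238 CPM in organoids and 0.405 and 0.596 CPM in tissue. It was lower in organoids than in assembloids (−2.77 ± 0.70, edgeR adjusted p = 0.0101), while neither culture passed the test against tissue (1.01 ± 0.67 and −1.76 ± 0.72). Col17a1 had 0.160 and 0.221 CPM in assembloids, with 0.144 and 0.206 CPM in organoids and 0.362 and 0.244 CPM in tissue, with no call.

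Over whole libraries, stroma exceeded assembloid epithelium for most members. Of 40 members tested 25 were higher and 6 lower in stroma, where 38.9% of all 20841 genes were called higher and 33.6% lower, and the median was 2.87 over members and 0.18 over all genes. Col6a3 had 241 and 332 CPM in stroma against 3.57 and 7.41 CPM (5.98 ± 0.40, edgeR adjusted p = 2.61e-05), Col27a1 had 39.3 and 71.6 against 1.03 and 1.32 CPM (5.81 ± 0.45, edgeR adjusted p = 1.12e-05), and Col15a1 had 64.9 and 85.4 against 1.70 and 3.63 CPM (5.09 ± 0.32, edgeR adjusted p = 4.26e-06). Col1a2 had 1427 and 2224 against 73.2 and 91.5 CPM (4.71 ± 0.35, edgeR adjusted p = 4.08e-05). Col17a1 had the largest difference (6.403 ± 1.15, edgeR adjusted p = 0.00107) and the widest spread, 25.9 and 1.65 CPM against 0.159 and 0.227 CPM. None of the 5 genes overlapped between the groups.

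The 6 members lower in stroma were all near 1 CPM or less there. Col20a1 had 0.303 and 0.279 CPM in stroma against 1.24 and 2.62 CPM in assembloid epithelium (−2.45 ± 0.42, edgeR adjusted p = 0.000824). Col28a1 had 0.192 and 0.258 against 0.777 and 0.809 CPM (−1.59 ± 0.44, edgeR adjusted p = 0.0102). Col26a1 had 0.124 and 0.0787 against 1.64 and 1.18 CPM (−3.57 ± 0.77). Col6a6 had 0.0124 and 0.0286 against 0.833 and 0.236 CPM (−4.51 ± 0.95), and Col4a3 had 0.210 and 0.0572 against 0.970 and 0.455 CPM (−2.21 ± 0.67). Col19a1 had 2 UMIs in stroma against 87, a ratio of 0.0225 (exact 95% interval 0.00268–0.0837). Col6a6, with 2 and 4 UMIs in stroma, and Col19a1 passed the filter on low counts only through assembloid epithelium, where they are higher. The differences of these 6 members, and of the members higher in stroma, coincide with the change of counting version between the libraries. Neither set of differences can be told apart from that change.

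The genes that modify and handle collagen differed between the sources as well. Of 13 genes for hydroxylation, 10 were higher in assembloid epithelium than in tissue and none lower, all 7 tested genes for propeptide cleavage were higher, and 4 of 5 lysyl oxidases were higher, beside 27% of all genes higher and 23.3% lower. Several of these genes passed the filter on low counts only through cultures where they are higher. Of those that reached 0.0996 CPM in both tissue libraries, 8 of 11 hydroxylation genes, all 3 propeptide genes (Bmp1, Adamts3 and Pcolce) and all 3 lysyl oxidases (Loxl1, Loxl2 and Loxl3) were higher. In organoids against tissue, where 24.3% of all genes were higher and 22.9% lower, the lists were mixed, with 6 hydroxylation genes higher and 2 lower (Plod1 and P3h4), 3 of 7 propeptide genes higher, 4 of 5 lysyl oxidases higher, and 1 of 8 chaperone, glycosylation and export genes higher (Colgalt1) and 4 lower. Of the genes at that level in both tissue libraries, 4 of 11 hydroxylation, 2 of 3 propeptide and 3 of 3 lysyl oxidase genes were higher in organoids. Serpinh1, which encodes HSP47, had 19.5 and 10.1 CPM in assembloid epithelium, none in organoids and 0.213 and 0.0542 CPM in tissue, against 2013 and 2009 CPM in stromal fibroblast-like cells (7.11 ± 0.64 for assembloids against tissue, edgeR adjusted p = 0.000132). In organoids against assembloids, where 29.3% of all genes were lower and 24.7% higher, 7 of the 13 hydroxylation genes, 5 of 7 propeptide genes, 4 of 8 chaperone, glycosylation and export genes and 3 of 5 lysyl oxidases were lower, while Crtap, Colgalt1 and Loxl4 were higher. The lysyl hydroxylase Plod2 had 2.49 and 5.84 CPM in organoids and 0.469 and 0.623 CPM in tissue (3.11 ± 0.40, edgeR adjusted p = 0.000386). The part of fibroblast RNA in these differences was not tested.

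Tissue epithelium was the highest epithelial source for a few of these genes. Creb3l1, a transcription factor of the secretory pathway that is known to drive collagen genes, had 334 and 334 CPM in tissue, 53.9 and 64.6 CPM in assembloids and 7.81 and 11.7 CPM in organoids (−4.89 ± 0.24 for organoids against tissue, edgeR adjusted p = 6.08e-06). The collagen-binding integrin chain Itga1 had 22.8 and 17.9 CPM in tissue, 3.23 and 2.91 in assembloids and 2.44 and 3.07 in organoids. In both genes tissue did not overlap with either culture. Of 8 chaperone, glycosylation and export genes, Mia3, Creb3l1 and Fkbp14 were lower in assembloids than in tissue and Colgalt2, Serpinh1 and Fkbp10 were higher.

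The members not described so far were rare in every library. Col2a1, the main collagen of cartilage, had at most 0.0495 CPM and Col10a1, of growth plate cartilage, at most 0.108 CPM. The type IX chains that decorate cartilage fibrils reached 0.0758 CPM (Col9a1), 0.127 CPM (Col9a2) and 0.505 CPM (Col9a3). Col22a1 and Col6a4 stayed at or below 0.107 CPM, Col11a2 at or below 0.237 CPM, Col8a2 at or below 0.244 CPM and Col4a6 at or below 0.442 CPM. Col13a1 was at 0.711 and 0.937 CPM in stroma and at most 0.505 CPM elsewhere.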

How the data were processed

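Single-cell RNA-seq libraries of assembloid stroma and of assembloid, organoid and tissue epithelium were analysed, 2 per group. The authors deposited raw UMI counts per gene and barcode, made from the reads by Cell Ranger 6.0.1 (stroma) and 7.1.0 (epithelium) per the file headers. The submitters' processing notes name Cell Ranger 6 and mm10. Whether intronic reads were counted is not given in the sources used here, and version differences can move low genes in particular. Gene positions come from GENCODE M21 (99.6% of features matched by identifier) and promoter sequences from RefSeq (GRCm38.p6, 35 of 44 members matched with 38 windows).

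Barcodes under 500 genes or over 10% mitochondrial UMIs were left out. The stated cell numbers of the study were exceeded for stroma and assembloid epithelium and not reached for organoids and tissue by this filter, so the cells analysed are not the study's own set. A cell was assigned to the class whose list of 8 genes had at least 3 detected genes and a lead of at least 2, and to a fibroblast type in the same manner, with contractile-like cells taken at 4 or more contractile genes. Epithelial cells were split with further lists of 8 genes, added after the values were seen. No doublet caller was run, and leaving out the top 5% of cells by UMIs was an alternative.

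UMIs were summed per library and class and tested with edgeR 4.0.16 (filterByExpr, TMM, quasi-likelihood test, Benjamini-Hochberg adjustment over all genes tested, threshold 0.05), with the library as a block in the stromal classes and no block across groups. DESeq2 1.42.0 was an alternative. R 4.3.3, Python 3.11.15, numpy 2.4.6, scipy 1.17.1, pandas 2.3.3 and matplotlib 3.10.9 were used. Classes entered with at least 20 cells in both libraries. Shares of cells were compared after thinning to 2000 UMIs. Intervals are exact at the 95% level and cover counting error only, and a count of 0 was set to a floor of 3 UMIs. On simulated counts, set 4-fold changes were recovered in 167 of 199 changed genes for organoids against tissue (83.9%). They were recovered in 136 of 177 for glia (76.8%), 151 of 168 for endothelium (89.9%) and 181 of 181 for telocyte-like cells (100%). In the same order, false calls numbered 7, 6, 11 and 7, with 18886, 11017, 11026 and 11007 genes tested. All groups shared a common dispersion and a mean profile in the simulation. It therefore does not cover members near 0 in a group.

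Members and lists were chosen with earlier results of these data known. The rule for names was 18 collagens with values in every library, and in each comparison up to 5 called members with the largest change in each direction. Col5a3, Col8a1, Col16a1, Col24a1, Col27a1 and the genes of the collagen pathway that are given with values were partly named outside this rule, after their values were seen, as were the members listed as rare. Whether replicate numbers pair the libraries across groups is not stated. Deviations between replicates had correlations from −0.025 to 0.070 between groups over 20694 genes, which cannot show whether libraries share a mouse or day. Alternatives were other scaling, filters on genes and cells, gates, the block, DESeq2 and leaving out each library.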

Additional observations from a re-analysis of the deposited data

Results flagged for a closer look

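Col14a1 was found in immune-like cells of the assembloid epithelial libraries, a class that was not compared on its own. It had 47 and 56 UMIs there, or a mean of 48.4 CPM, and was the leading collagen of those 118 and 116 cells, with 42.7% and 23.4% of their collagen UMIs. In stromal fibroblast-like cells it was at 2.25 and 7.11 CPM, and in the epithelium-like cells of the same libraries at 1.42 and 1.56 CPM.

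Col24a1, a fibrillar collagen, was found in the fibroblast-like cells caught in the assembloid epithelial libraries at a mean of 37.2 CPM, while fibroblast-like cells of the stromal libraries had 2.40 and 1.504 CPM. The counting version differs between those libraries and cannot be told apart from the labelled compartment. These cells entered a test only within the sums over whole libraries, and neither value was tested on its own.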

How the results depend on the processing

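No called member changed its sign under any alternative. Of 2460 values for single genes, 2218 were rated the same, 62 lost the call, 42 gained it and 114 moved. In refits, the same meant that direction and side of the threshold were kept. Values from a single stromal library had no test. They were rated the same within the SE of the main fit and moved beyond it, and sign changes of uncalled genes were not counted there. The other 24 changed sign in a refit and are given here on the log2 scale. For organoids against tissue, Col1a1 was 0.039 with at most 20% and 3.14 with at most 5% mitochondrial UMIs. For organoids against assembloids, Col17a1 was 0.084 with at most 20% mitochondrial UMIs, Col28a1 was −0.039 with DESeq2, −0.044 with the replicate block, −0.090 without the top 5% of cells and −0.19 in cells with no fibroblast-list UMI, Col4a1 was −0.74 (edgeR adjusted p = 0.0096) and Col4a2 −0.12 over all passing cells, and leaving out a library took Col28a1 from −0.42 to 0.39 and Col4a1 from −0.20 (without assembloid replicate 2) to 1.03. For telocyte-like cells Col4a1 was 0.017 without TMM, Col17a1 0.22 with the looser and Col6a1 −0.048 with the stricter gate. For contractile-like cells Col6a2, Col6a3 and Col15a1 were 0.082, 0.14 and 0.000603 without TMM, Col4a1 −0.023 with no filter and −0.10 with the looser gate, Col4a2 −0.076 with the looser gate, and Col15a1 0.21 and Col14a1 0.38 without the top 5% of cells. In glia Col17a1 was 0.068 with the stricter gate.

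Member calls ranged from 20 to 30 for assembloids against tissue (main 28), 11 to 16 for organoids against tissue (14), 21 to 33 for organoids against assembloids (27) and 29 to 31 for stroma against assembloid epithelium (31). Leaving out 1 library gave 23 to 30, 7 to 17, 19 to 30 and 28 to 32. The lowest of these, 7, came without organoid replicate 1, and 9 came without tissue replicate 1 or 2. In stroma the calls ranged from 9 to 16 in telocyte-like cells (13), 16 to 19 in glia (17), 19 to 22 in endothelium (20), 20 to 24 in neurons (22) and 21 to 25 in squamous-like cells (22). The contractile count of 2 was 5 with no filter, 4 with at most 5% mitochondrial UMIs, 1 with the looser gate and 0 with no replicate block. With the replicate block across groups the counts were 27, 15, 28 and 31, and without the library block in stroma they were 9 (telocyte-like), 16 (glia), 19 (endothelium), 20 (neuron) and 21 (squamous). DESeq2 called 25, 12, 29 and 30 members in the epithelial and library comparisons and 10, 2, 18, 22, 20 and 23 in stroma. It was run on all genes with a UMI, and of the members that edgeR tested it called 24, 12, 27 and 30, and 10, 2, 18, 20, 19 and 21. Leaving out 1 stromal library left no residual degrees of freedom, so it gave values with no test. Alternatives under which a class fell below 20 cells gave no value (1 each for contractile, endothelium and neuron, 3 for squamous).

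Without TMM the median of all genes shifted by −0.37 for assembloids against tissue, −0.21 for organoids against tissue, 0.14 for organoids against assembloids, −0.23 for stroma, 0.15 in contractile, 0.17 in neuron and −0.23 in squamous-like cells, and with DESeq2 by −0.27 for stroma, 0.18 in glia, 0.14 in endothelium and 0.21 in neurons. Calls near these sizes depend on the scaling. Calls lost under 2 or more alternatives were Col4a3 and Col4a4 (10 of 18 each), Col19a1, Col27a1 and Col9a3 for assembloids against tissue; Col13a1 (10 of 18), Col14a1, Col15a1, Col25a1, Col4a4, Col20a1 and Col6a5 for organoids against tissue; Col26a1, Col13a1, Col4a3 and Col9a3 for organoids against assembloids; and Col13a1 and Col9a2 (10 of 15 each) and Col4a3 for stroma. In stromal classes they were Col16a1, Col6a2, Col1a2 and Col5a3 (telocyte-like), Col3a1 (contractile), Col5a1 (glia), Col25a1 (endothelium), Col4a5, Col8a1 and Col14a1 (neuron) and Col4a5 (squamous). With 2 libraries per group and members under 1 CPM in epithelium, small differences may have been missed, which was not tested.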
